A study of Arabidopsis thaliana with 115 samples.

Results

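The libraries described here are 3 RNA-seq libraries of root protoplasts that expressed ZFP4 fused to the glucocorticoid receptor (GR), and the 3 empty vector (EV) libraries of batch 4, whose cells expressed GR alone. They were chosen by the TF and the batch that their labels give, and they are 6 of the 30 libraries of batch 4. The protoplasts came from roots of 10-day-old Col-0 seedlings, so both groups share 1 genotype and carry the plasmid only for a short time. All 6 received 20 mM KNO3 and 20 mM NH4NO3 (60 mM N) for 2 h, 35 µM cycloheximide (CHX) for 20 min and then 10 µM dexamethasone (DEX), and were sorted 3 h after DEX. The question was which genes change when ZFP4 enters the nucleus while protein synthesis is blocked, and a gene that passed the test against EV is called a target, induced or repressed. The 24 libraries of the 8 other TFs of batch 4 (ASR3, bZIP3, C2H2, CDF1, ERF060, HHO2, LBD38 and NAC4) went through the same treatments and serve as a further reference.

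ZFP4 (AT1G66140, chr1:24619830-24622117, minus strand, TAIR10.1) is a small protein with a single zinc finger of the Cys2-His2 type. In Arabidopsis it belongs with ZFP3 to a group of such proteins known for dampening abscisic acid (ABA) responses of germinating seeds, and proteins of this type often act as transcriptional repressors. The study took it up because its gene responds early to nitrogen (N). In the TARGET assay used here, which finds genes that answer to a TF within hours in isolated root cells, the GR part keeps the fusion protein in the cytoplasm until DEX is added, and CHX blocks the translation of regulators that the TF induces. All cells express the protein from the plasmid at a level that the plant does not set, in protoplasts that have lost their walls and neighbours.

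The 6 libraries held 13054750 to 17910774 counts. Cells were transfected once per construct and then divided over 3 wells, so the replicates are wells of 1 transfection and p-values measure the spread between wells, which may be technical. The ZFP4 transcript, which counts plasmid and chromosomal copies alike, reached 5481, 5558 and 5893 CPM (counts scaled to a common library size) in the ZFP4 libraries and 9.99, 11.95 and 10.3 CPM in the EV libraries. It was 524-fold higher in the former, as their labels imply, and ZFP4 itself is left out of all counts of targets.

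In each well a TF in a red and a TF in a green fluorescent vector were kept together and separated by cell sorting. Which constructs shared wells, and which colour each had, is not given in the sources used here, so a difference in colour between the ZFP4 and the EV cells, if there was one, cannot be told apart from ZFP4 in any comparison with EV. The transcript of ASR3, another TF of batch 4, was at 32.3, 26.6 and 29.5 CPM in the ZFP4 libraries and at 5.601, 3.02 and 4.18 CPM in the EV libraries. No other group without the ASR3 construct had a library above 6.40 CPM, and the libraries with it averaged 11226 CPM. The ZFP4 transcript in turn averaged 22.2 ± 5.68 CPM (SD, n = 3) in the ASR3 libraries, against 5.85 to 12.8 CPM in single libraries of EV and of the 7 remaining TFs. In the same way the C2H2 transcript was at 20.1, 16.6 and 34.7 CPM in the EV libraries and at 0.643, 2.27 and 1.63 CPM in the ZFP4 libraries, with 6874 CPM on average in the C2H2 libraries. The bZIP3 transcript averaged 6.01 CPM in the LBD38 libraries and was at most 0.770 CPM in other libraries without its construct. LBD38 averaged 45.8 CPM with NAC4, 30.6 CPM with bZIP3 and 12.9 CPM with EV. NAC4 averaged 16.7 CPM with CDF1, 8.27 CPM with ASR3 and 6.84 CPM with EV. ASR3 and C2H2 passed the test as an induced and a repressed gene (log2 fold change 2.80 ± 0.24 (SE), FDR 4.95e-16 for ASR3, log2 fold change -3.997 ± 0.32 (SE), FDR 1.66e-17 for C2H2). Neither is described further as a target, and the part of cells carried over in sorting in these values was not tested.

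**Figure D1:**
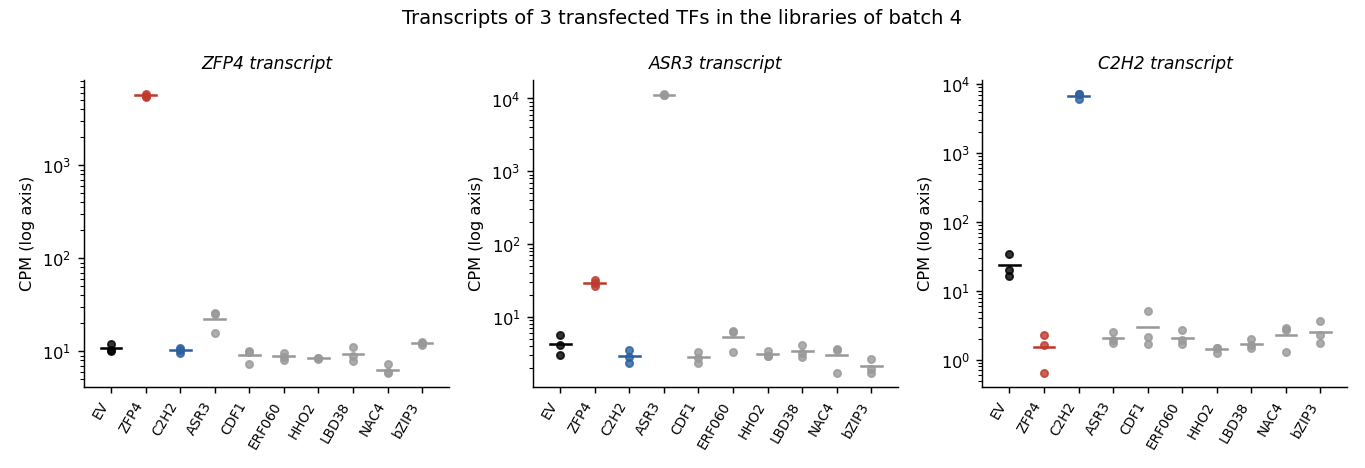
Level of the transcripts of ZFP4, ASR3 and C2H2 in the 30 libraries of batch 4, in CPM on log axes. Points are libraries, bars are means of 3 libraries, and colours mark EV (black), ZFP4 (red), C2H2 (blue) and the other TFs (grey). The ASR3 transcript averages 29.5 CPM in the ZFP4 libraries and the C2H2 transcript 23.8 CPM in the EV libraries, above all other groups without the construct.

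Of 21484 genes tested that were neither CHX-responsive nor ZFP4, 1718 passed an FDR of 0.05 in ZFP4 against EV, 780 induced (3.63%) and 938 repressed (4.37%). The median log2 fold change was -0.58 for repressed and 0.90 for induced targets, against 0.00 for all genes tested. At least 2-fold changes were seen for 348 induced and 146 repressed targets. In 1645 of the 1718 targets the 3 ZFP4 and the 3 EV values did not overlap, against 23.9% of all genes tested. The choice of targets by a test on the same libraries favours this. The highest FDR among the targets was 0.0498 and the lowest among the other genes 0.05001. Without ZFP4 replicate 3 the repressed targets numbered 580.

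The repressed targets with the lowest FDR were AT1G59740, MYB78 and NAC019. AT1G59740, a major facilitator superfamily protein, was at 246, 239 and 216 CPM in the ZFP4 libraries and at 1217, 1144 and 1250 CPM in the EV libraries. It fell 5.15-fold (log2 fold change -2.36 ± 0.09 (SE), FDR 2.36e-42), and the lowest EV library was far above the highest ZFP4 library. MYB78, an R2R3 MYB, was at 69.2, 70.7 and 65.2 CPM with ZFP4 and 382, 331 and 328 CPM with EV, 5.07-fold lower (log2 fold change -2.34 ± 0.10 (SE), FDR 1.39e-40). NAC019, a NAC TF that responds to ABA and jasmonate, was at 425, 428 and 383 CPM with ZFP4 and 1233, 1249 and 1420 CPM with EV (log2 fold change -1.66 ± 0.10 (SE), FDR 4.48e-29). For both TF genes the libraries of a group lay close together and the groups were well apart. NAP, a NAC TF known from leaf senescence, fell less, from 504, 527 and 556 CPM with EV to 219, 210.2 and 204 CPM with ZFP4 (log2 fold change -1.33 ± 0.11 (SE), FDR 3.10e-18). Of the TF genes named here, NAP, AT2G41130, LBD11, AT5G61890 and WRKY17 were picked after their values were seen. AT1G61660 and AT2G41130, both basic helix-loop-helix proteins, changed by -2.03 ± 0.13 and -1.54 ± 0.13 (log2, SE). LBD11 (log2 fold change -1.11), AT5G61890, a protein with an integrase-type DNA-binding domain (-1.13), and WRKY17 (-1.17) were lower too, with all 3 ZFP4 values below all EV values.

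NRT1.8, a nitrate transporter that takes nitrate back from the xylem, was at 25.3, 26.2 and 21.2 CPM in the ZFP4 libraries and 109, 86.6 and 104 CPM in the EV libraries, 4.12-fold lower (log2 fold change -2.04 ± 0.18 (SE), FDR 4.55e-15). PA2, a cell wall peroxidase, was at 179.7, 182 and 152 CPM with ZFP4 and 869.7, 810.4 and 897 CPM with EV, 5.02-fold lower (log2 fold change -2.33 ± 0.15 (SE), FDR 1.80e-24). The groups did not overlap for either gene, which the choice of these genes required. The next genes on chromosome 5, picked after their values were seen, were repressed as well, the peroxidase AT5G06730 with a log2 fold change of -1.24 ± 0.12 and the lectin receptor kinase AT5G06740 with -1.03 ± 0.11 (SE). TPPE, a trehalose-6-phosphate phosphatase, was at 3.76, 2.79 and 1.82 CPM with ZFP4 and 22.1, 18.9 and 19.5 CPM with EV (log2 fold change -2.83 ± 0.30 (SE), FDR 1.40e-12). AOC2, an allene oxide cyclase of jasmonate synthesis with close copies in the genome, was low throughout, at 1.38, 1.05 and 0.651 CPM with ZFP4 and 5.53, 2.62 and 6.69 CPM with EV (log2 fold change -2.21 ± 0.41 (SE), FDR 3.30e-05). The remaining repressed targets of the 12 with the largest fold change, AT2G04795 (log2 fold change -1.93) and AT5G52415 (-1.86), have no annotated role and did not exceed 18.1 CPM.

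LBD29 and LBD16 of the auxin response list stood among the repressed targets with the largest fold changes. LBD16 and LBD29 are LATERAL ORGAN BOUNDARIES DOMAIN TFs that auxin induces at the start of a lateral root. LBD29 was at 1.63, 1.75 and 0.456 CPM with ZFP4 and 10.52, 9.60 and 10.2 CPM with EV (log2 fold change -2.95 ± 0.39 (SE), FDR 1.96e-09), and LBD16 at 8.95, 6.69 and 5.599 CPM and 30.05, 21.0 and 25.7 CPM (log2 fold change -1.84 ± 0.18 (SE), FDR 2.32e-14). MAKR4, a membrane-associated kinase regulator, was at 2.57, 3.09 and 1.11 CPM with ZFP4 and 26.6, 16.1 and 23.7 CPM with EV (log2 fold change -3.27 ± 0.35 (SE), FDR 6.82e-13). The low values rest on few reads, 7 to 33 counts for LBD29 and 17 to 53 for MAKR4 in the ZFP4 libraries, and the third ZFP4 library was the lowest for both. Of 16 members of the auxin response list tested, 5 were repressed and 1 induced, with a median log2 fold change of -0.36. Among all genes tested 4.37% were repressed and 3.63% induced. The AUX/IAA repressor genes IAA19 (log2 fold change -1.42 ± 0.17 (SE), FDR 4.31e-10) and IAA2 (log2 fold change -1.12 ± 0.11 (SE), FDR 7.49e-14) fell, as did GH3.5, which conjugates auxin to amino acids and lost its call without ZFP4 replicate 3 or EV replicate 1 (log2 fold change -0.82 ± 0.23 (SE), FDR 0.0122). IAA7, also an AUX/IAA gene, rose from 8.63, 6.92 and 6.27 CPM with EV to 26.5, 25.1 and 27.2 CPM with ZFP4 (log2 fold change 1.85 ± 0.28 (SE), FDR 4.14e-07). Of the 7 auxin transporters tested 3 were repressed, among them PIN3 (-1.49 ± 0.17) and PIN7 (-0.97 ± 0.14), and 1 was induced, PIN2 (1.67 ± 0.43, log2 with SE). PIN2 is the efflux carrier of epidermis, cortex and lateral root cap, whereas PIN3 and PIN7 are known from the stele and the columella.

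**Figure D2:**
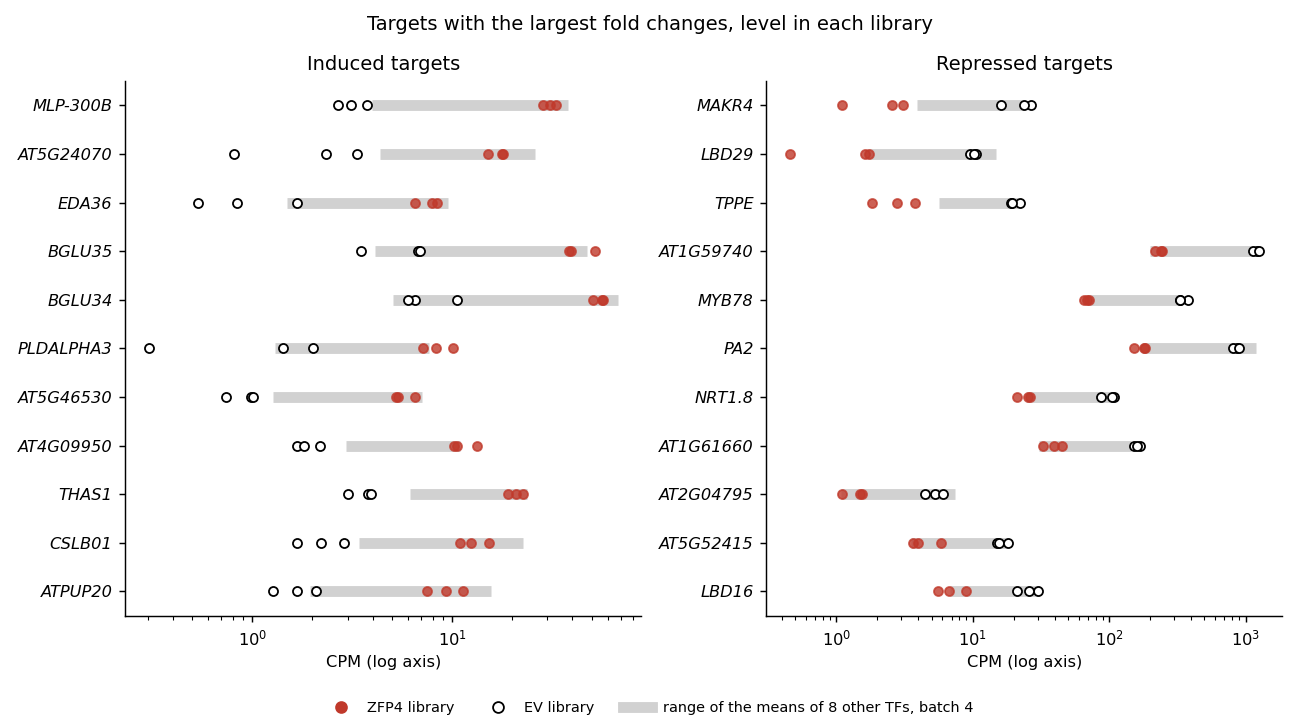
Level of the targets with the largest fold changes in each of the 3 ZFP4 libraries (red) and the 3 EV libraries (open circles), in CPM on log axes, with the induced targets on the left and the repressed on the right. ASR3 and C2H2 are left out. Grey bars span the means of the 8 other TFs of batch 4. Only genes without overlap of the ZFP4 and EV values were chosen. Among the induced genes the EV mean is the lowest of the 10 groups in all but BGLU34 and BGLU35, which the choice against EV favours.

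The induced target with the largest fold change and the lowest FDR was MLP-300B. MLP-300B, a myrosinase-binding protein-like gene, was at 31.0, 28.5 and 33.3 CPM in the ZFP4 libraries and 3.103, 3.76 and 2.68 CPM in the EV libraries, 9.62-fold higher (log2 fold change 3.27 ± 0.26 (SE), FDR 5.46e-19). BGLU34 and BGLU35 encode the root myrosinases, enzymes that split glucosinolates. BGLU34 was at 56.9, 50.4 and 56.3 CPM with ZFP4 and 6.51, 10.6 and 6.02 CPM with EV (log2 fold change 2.81 ± 0.33 (SE), FDR 1.82e-10), and BGLU35 at 51.8, 38.7 and 39.3 CPM and 6.74, 6.92 and 3.51 CPM (log2 fold change 2.90 ± 0.39 (SE), FDR 2.02e-08). These 2 genes are close copies, and how reads that match both were counted is not stated, so the split between them is uncertain. AT5G24070, a peroxidase, was at 15.2, 17.8 and 17.9 CPM with ZFP4 and 3.33, 0.806 and 2.34 CPM with EV (log2 fold change 2.99 ± 0.33 (SE), FDR 8.01e-12). All ZFP4 values were above all EV values in each of these genes, which their choice required. The list went on with EDA36, a pyridoxal phosphate-dependent transferase (2.91), PLDALPHA3, a phospholipase D (2.75), AT5G46530, an AWPM-19-like protein (2.64), AT4G09950, a P-loop hydrolase (2.59), CSLB01, a cellulose synthase-like protein (2.498), and ATPUP20 (2.49, all log2 fold changes). None of these 6 exceeded 15.3 CPM in any of the 6 libraries, and PLDALPHA3 lost the call without EV replicate 1.

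THAS1, the oxidosqualene cyclase that makes the triterpene thalianol in roots, was at 22.8, 19.0 and 20.8 CPM with ZFP4 and 3.78, 3.02 and 3.93 CPM with EV, 5.86-fold higher (log2 fold change 2.55 ± 0.28 (SE), FDR 1.19e-11). It lies in a cluster of thalianol genes on chromosome 5, whose other members were looked up after the value of THAS1 was seen. CYP705A5, which acts on the product of CYP708A2, was at 32.1, 19.3 and 18.23 CPM with ZFP4 and 4.62, 4.03 and 4.60 CPM with EV (log2 fold change 2.401 ± 0.26 (SE), FDR 1.71e-11). The acyltransferase AT5G47980 (log2 fold change 1.15 ± 0.27 (SE), FDR 0.00127) and the thalianol hydroxylase CYP708A2 (log2 fold change 1.41 ± 0.46 (SE), FDR 0.0334) were called with smaller changes. The first lost its call without ZFP4 replicate 1, and the second, whose groups overlapped, in 4 of the 6 fits with a library left out. The 3 ABC transporters named next were picked after their values were seen and rose as well, ABCG37 (1.505 ± 0.19), ABCC1 (1.05 ± 0.13) and ABCG34 (0.94 ± 0.11, log2 with SE). MAP18, a microtubule-destabilizing protein, was also picked after its value was seen, for an FDR below those of all induced targets but MLP-300B and ASR3. It was at 30.9, 32.9 and 40.3 CPM in the ZFP4 libraries and at 7.57, 12.8 and 13.6 CPM in the EV libraries (log2 fold change 1.61 ± 0.15 (SE), FDR 6.28e-15).

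The 250 bases before the annotated start are shown for 4 repressed and 2 induced targets on which these results turn, read 5′ to 3′ on the strand of the gene from the TAIR10.1 genome of RefSeq. They are lower case, and capitals mark exact matches on either strand to the 12 motifs searched, of which the G-box and the ABRE core can overlap. NAC019 holds a G-box (CACGTG), NRT1.8 a TGACG site (TGACGT), MLP-300B the core of an evening element (AATATCT) and THAS1 2 homeodomain sites (AATNATT). AT1G59740 and MYB78 hold none of the 12.
AT1G59740 (chr1:21967736-21967985, plus strand): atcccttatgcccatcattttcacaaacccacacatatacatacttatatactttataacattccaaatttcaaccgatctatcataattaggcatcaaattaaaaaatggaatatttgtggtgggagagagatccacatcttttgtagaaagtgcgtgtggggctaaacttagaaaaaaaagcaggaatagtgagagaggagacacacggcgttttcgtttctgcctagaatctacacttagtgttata
MYB78 (AT5G49620, chr5:20139610-20139859, minus strand): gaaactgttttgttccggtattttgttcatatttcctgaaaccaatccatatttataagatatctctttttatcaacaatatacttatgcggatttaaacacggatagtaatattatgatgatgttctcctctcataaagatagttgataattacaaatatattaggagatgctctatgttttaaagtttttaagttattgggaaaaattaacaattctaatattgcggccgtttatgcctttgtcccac
NAC019 (AT1G52890, chr1:19698483-19698732, minus strand): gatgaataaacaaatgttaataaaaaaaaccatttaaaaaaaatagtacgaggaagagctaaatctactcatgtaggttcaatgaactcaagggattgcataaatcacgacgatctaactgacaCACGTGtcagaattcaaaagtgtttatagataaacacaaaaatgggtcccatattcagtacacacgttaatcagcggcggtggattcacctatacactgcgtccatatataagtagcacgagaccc
NRT1.8 (AT4G21680, chr4:11519806-11520055, minus strand): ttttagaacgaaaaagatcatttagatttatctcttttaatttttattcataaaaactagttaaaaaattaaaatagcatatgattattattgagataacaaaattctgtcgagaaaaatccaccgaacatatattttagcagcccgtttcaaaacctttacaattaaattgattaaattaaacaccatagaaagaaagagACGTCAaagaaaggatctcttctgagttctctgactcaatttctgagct
MLP-300B (AT3G16440, chr3:5585622-5585871, plus strand): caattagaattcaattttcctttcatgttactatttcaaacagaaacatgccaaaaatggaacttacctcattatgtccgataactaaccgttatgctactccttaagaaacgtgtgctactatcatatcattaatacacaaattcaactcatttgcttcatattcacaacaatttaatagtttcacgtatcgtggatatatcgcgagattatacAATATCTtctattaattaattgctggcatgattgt
THAS1 (AT5G48010, chr5:19456587-19456836, plus strand): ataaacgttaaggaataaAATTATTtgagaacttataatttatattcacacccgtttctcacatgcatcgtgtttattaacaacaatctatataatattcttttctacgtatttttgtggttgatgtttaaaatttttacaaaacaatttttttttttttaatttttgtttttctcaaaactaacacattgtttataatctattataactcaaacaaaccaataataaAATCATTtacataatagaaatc

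Over all 21359 promoters of tested genes, the G-box was found in 6.93%, the TGACG site in 7.78%, the evening element core in 10.0% and the homeodomain site in 31.0%. The share with a G-box was 8.58% in repressed and 7.95% in induced targets. The site II element (TGGGCC), known from genes of translation and cell division, was found in 8.26% of repressed promoters, 16.7% of induced promoters and 15.7% of all. The telo box core (AACCCTA) was found in 3.33%, 5.13% and 6.04% of these, the ABRE core (ACGTGG) in 8.91%, 11.0% and 8.56%, and the W-box (TTGACC) in 12.3%, 13.7% and 11.9%. The I-box core (GATAAG) was in 12.6% of repressed, 15.3% of induced and 12.1% of all promoters, and the AGT repeat (AGTNNAGT) in 13.2%, 11.2% and 11.6%. The GCC box (GCCGCC) and the dehydration-responsive element (GCCGAC) were in fewer than 4% of any group. These shares are descriptions of the window, and no test was made.

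The ABA pathway, for which ZFP4 and its relatives are known, was covered by 5 lists, to be read against 3.63% induced and 4.37% repressed among all genes tested. Of 10 ABA receptors tested only PYL4 was called, at 17.3, 12.3 and 14.8 CPM with ZFP4 and 36.9, 24.6 and 30.4 CPM with EV (log2 fold change -1.04 ± 0.19 (SE), FDR 2.78e-05). The clade A phosphatases ABI1 (-0.64 ± 0.12) and HAI3 (-0.61 ± 0.19, log2 with SE), which hold ABA signalling back, fell, and the other 7 of 9 did not pass. Of 11 ABA kinases and TFs, 0 were called by edgeR, 0 by DESeq2 and 1 at an unadjusted p under 0.05. Among 27 ABA-responsive genes, 4 were repressed (NAC019, RD26, HB7 and COR47) and 1 induced, the caleosin gene RD20, at 12.5, 8.27 and 6.32 CPM with ZFP4 and 1.97, 2.35 and 3.34 CPM with EV (log2 fold change 1.83 ± 0.36 (SE), FDR 8.19e-05). RD26 changed by -0.51 ± 0.10, HB7 by -0.45 ± 0.11 and COR47 by -0.42 ± 0.11 (log2, SE), and the median of the 27 was -0.22. The aldehyde oxidase AAO3, which makes ABA in its last step, was the only target among 8 genes of ABA metabolism (log2 fold change -0.34 ± 0.11 (SE), FDR 0.0264), and it lost its call in 4 of the 6 fits with a library left out. Of 7 relatives of ZFP4 with a single zinc finger, ZFP5 (-0.66 ± 0.17) and ZFP7 (-0.62 ± 0.21) were repressed, and all 7 fitted values were below 0. An eighth, the CHX-responsive ZFP2, was called higher with ZFP4 at no more than 2.503 CPM.

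Genes of N use moved in both directions. Of 28 genes of nitrate reduction and N assimilation, 4 were induced and 3 repressed (3.63% and 4.37% of all genes tested), and DESeq2 called 11 in place of these 7. Against the mean of the 8 other TFs of batch 4, 1 gene of this list was higher and 0 lower. ASN1, the asparagine synthetase of N-poor and dark conditions, was at 317, 352 and 238 CPM with ZFP4 and 95.4, 93.6 and 78.7 CPM with EV (log2 fold change 1.76 ± 0.28 (SE), FDR 1.32e-06). The nitrate reductase gene NIA2 was at 337, 315 and 266 CPM with ZFP4 and 643, 525 and 590.4 CPM with EV (log2 fold change -0.94 ± 0.12 (SE), FDR 1.67e-10). The groups did not overlap for either gene. Glutamate dehydrogenase GDH2 (0.64 ± 0.12) rose and glutamine synthetase GLN1.3 fell (-0.61 ± 0.13, log2 with SE). Of 18 nitrate and ammonium transporters, NRT1.8 and NRT1.2 (-0.39 ± 0.09) were repressed, and NRT2.5 was called as induced at no more than 2.604 CPM, a call lost in 4 of the 6 fits with a library left out. DESeq2 called 8 of these 18 transporters, against 3 by edgeR. Of 25 regulators of N signalling, NLP8 (0.53 ± 0.12) and HRS1 (1.29 ± 0.38, not called without ZFP4 replicate 2 or EV replicate 1) were induced and CDF1, itself a TF of batch 4 (-0.63 ± 0.14), and CIPK8 (-0.36 ± 0.09) repressed, the values being log2 fold changes with SE. The median of each of these 3 lists lay between -0.09 and 0.03.

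Sulfate assimilation had the largest number of induced members, 6 of 15 tested, with 1 repressed and a median of 0.16. Among all genes tested 3.63% were induced and 4.37% repressed. Against the mean of the 8 other TFs of batch 4, 1 sulfate assimilation gene was higher and 0 lower. APR3, an APS reductase of the reduction step, was at 241, 241 and 234 CPM with ZFP4 and 97.1, 101 and 103 CPM with EV (log2 fold change 1.25 ± 0.21 (SE), FDR 4.00e-06). SDI1, a regulator that sulfur deficiency induces, rose by 1.32 ± 0.21, SHM7 by 0.67 ± 0.14 and LSU1 by 1.31 ± 0.29 on the log2 scale (SE). For phosphate starvation, 3 of 12 members were induced, the sulfolipid synthase SQD2 (1.24 ± 0.17), the phosphate transporter PHT1.1 (1.13 ± 0.18) and the galactolipid synthase MGD3 (0.95 ± 0.23), and none was repressed. Against the 8 other TFs, 2 phosphate starvation genes were higher and 0 lower. PHT1.1 has near-identical copies, so its count is uncertain. Of 21 root hair genes, 4 were induced and 2 repressed, and against the 8 other TFs 1 was higher and 1 lower. The median against EV was 0.38, with 15 fitted values above 0 and 6 below. Among the induced were RHD6, the bHLH that starts hair outgrowth (log2 fold change 1.77 ± 0.31 (SE), FDR 1.57e-05), and LRX2, a wall protein of hair cells (1.08 ± 0.26). One of the repressed was LRL1 (-0.58 ± 0.12).

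Genes of ethylene and of indole metabolism fell where they were called against EV. Their lists were chosen with earlier results of these data known, and the counts are descriptions. Of 17 ethylene genes 6 were repressed and none induced, with a median of -0.28, against 4.37% repressed among all genes tested. The ACC synthase ACS2 was at 113, 119.7 and 149 CPM with ZFP4 and 210.4, 225 and 323 CPM with EV (log2 fold change -0.99 ± 0.16 (SE), FDR 1.52e-06). ACC oxidase ACO4 (-0.62 ± 0.10), EBF1, an F-box protein that turns over EIN3 (-0.67 ± 0.12), and the receptor ERS1 (-0.54 ± 0.10) fell less (log2, SE). Of 12 genes of indole glucosinolates and camalexin 6 were repressed and none induced, also to be read against that 4.37%, with a median of -0.54. The 6 were led by CYP83B1 (log2 fold change -0.93 ± 0.15 (SE), FDR 1.41e-06) and the exporter PEN3 (log2 fold change -0.60 ± 0.13 (SE), FDR 5.76e-04). Compared with the 8 other TFs, 2 genes of this list were lower and 0 higher (median -0.13). PAD4, a lipase-like regulator of salicylic acid defence, was the only target among 6 genes of its list, at 86.6, 87.6 and 84.0 CPM with ZFP4 and 179, 167 and 173 CPM with EV (log2 fold change -1.01 ± 0.11 (SE), FDR 1.97e-12). In the remaining lists 0 or 1 member passed: GA2OX6 of gibberellin, PRR9 of the clock, CKX5 of cytokinin, JAZ1 of jasmonate, MYB41 of suberin, 4CL1 of phenylpropanoids and XTH24 of the wall enzymes were repressed, NAS1 of iron uptake was induced at no more than 1.17 CPM and was not called by DESeq2, and 0 of 12 genes of light signalling and 0 of 13 of heat shock were called by edgeR or DESeq2 (2 and 1 at an unadjusted p under 0.05).

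**Figure D3:**
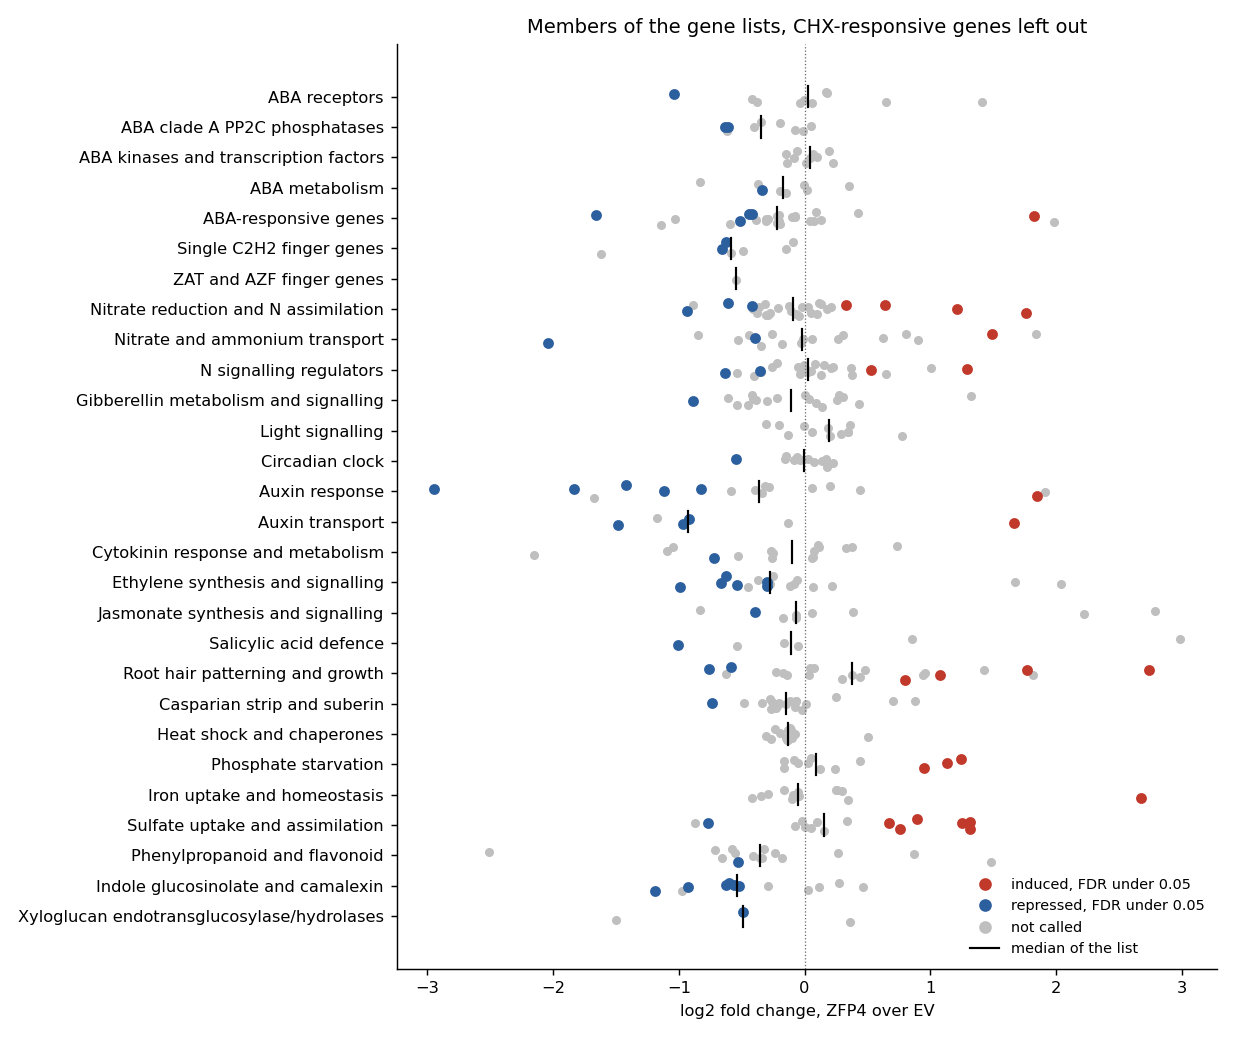
Log2 fold change of ZFP4 over EV for each tested member of the 28 pathway lists, with CHX-responsive genes left out. Each point is a gene, induced (red), repressed (blue) or not called (grey), points are moved apart vertically for legibility, and the black bar is the median of the list. Ethylene and indole glucosinolate genes hold 6 blue points each and auxin response 5, and sulfate assimilation holds 6 red points.

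Markers of root cell types were summed in each library. The summed level of 6 markers of the root cap and stem cell niche was 5.76 to 7.42 CPM in the ZFP4 libraries, 1.17 to 2.35 CPM in the EV libraries and 0.731 to 10.1 CPM in the other TF libraries. The root cap TFs SMB and BRN2 were 2 induced targets of that list, both at no more than 2.604 CPM. The 6 root hair markers summed to 13.0 to 17.3 CPM with ZFP4, 4.39 to 16.5 CPM with EV and 3.66 to 36.1 CPM with the other TFs. The 6 stele markers summed to 131 to 154 CPM with ZFP4, 161 to 180.3 CPM with EV and 113 to 182 CPM with the other TFs. All 6 root cap markers were fitted above 0 (median log2 fold change 1.23), as were the 5 root hair markers that are not CHX-responsive (0.95). The medians of the other marker lists lay between -0.23 and -0.09. In the lists of root hair, stele, endodermis, non-hair and photosynthetic cells edgeR called 0 members and DESeq2 1 of the stele, and 3 had an unadjusted p under 0.05. Sums of endodermis (19.4 to 24.5 and 21.99 to 28.0 CPM), non-hair epidermis (3.17 to 4.66 and 3.48 to 5.24 CPM) and photosynthetic markers (3.61 to 4.40 and 3.16 to 5.35 CPM) overlapped between ZFP4 and EV. No marker was at 0 in all 6 libraries. The part of cell type composition in the targets was not tested, and in pooled cells fewer cells of a type and less RNA per cell cannot be told apart.

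The other TFs of batch 4 give a reference that leaves EV out. Against their mean, 324 genes were higher (1.51%) and 440 lower (2.05%) in the ZFP4 libraries, and both comparisons use the ZFP4 libraries. Of the induced targets 167 (21.4%) were also higher than the other TFs, and of the repressed targets 329 (35.1%) were also lower, which are 51.5% and 74.8% of the genes called against the other TFs in these directions. No gene was called in opposite directions. Leaving out ZFP4 replicate 1, 2 or 3 lowered the number of genes called against the other TFs from 764 to 494, 475 and 323. Among the repressed genes with a large difference in both comparisons were AOC2 (log2 difference -2.21 ± 0.35, FDR 1.17e-06), MAKR4 (-2.18 ± 0.29, FDR 1.38e-08), LBD29 (-1.91 ± 0.33, FDR 8.03e-06), TPPE (-1.75 ± 0.25, FDR 1.32e-07) and PA2 (-1.62 ± 0.12, FDR 8.63e-20). AT1G59740 (-1.42 ± 0.08, FDR 4.65e-31) and MYB78 (-1.44 ± 0.08, FDR 4.40e-30) had smaller differences with lower FDR. The induced genes with the largest difference were MC9, a metacaspase of dying xylem and root cap cells (1.35 ± 0.15, FDR 7.06e-12), the nucleoside phosphatase AT1G14240 (1.32 ± 0.22, FDR 4.19e-06), BGLU35 (1.27 ± 0.23, FDR 8.32e-05), MLP-300B (1.26 ± 0.15, FDR 1.25e-10) and ABCG40, an ABA importer (1.26 ± 0.16, FDR 4.38e-09). MC9 was at 50.4, 55.4 and 39.4 CPM in the ZFP4 libraries, 17.2, 16.8 and 12.7 CPM in the EV libraries and 7.87 to 42.6 CPM in the other TF libraries, and its ZFP4 mean was the highest of the 10 groups, with libraries that overlapped those of CDF1 and HHO2. ABCG40 was at 45.2, 62.3 and 91.0 CPM with ZFP4 and 16.4, 23.8 and 22.8 CPM with EV, with a wide spread among the ZFP4 libraries. Its mean was higher with C2H2 (68.0 CPM) than with ZFP4 (66.2 CPM). HHO2 had a higher mean than ZFP4 for BGLU35 (47.4 against 43.3 CPM) and MLP-300B (38.2 against 30.9 CPM). For AT1G14240 the ZFP4 mean (14.5 CPM) was above that of every other TF, with CDF1 next (13.9 CPM). ASR3 and C2H2 also met this rule and are set out above.

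The levels across the 10 groups of batch 4 had an order that many targets shared. For MLP-300B the means ran from HHO2, ZFP4, CDF1, C2H2 and bZIP3 down to LBD38, ERF060, ASR3, NAC4 and EV. The 5 highest groups were C2H2, CDF1, HHO2, ZFP4 and bZIP3 in 170 of the 348 genes induced at least 2-fold (48.9%), and in 759 of all genes tested (3.53%). The same 5 groups were the lowest in 37 of the 146 genes repressed at least 2-fold (25.3%) and in 616 of all genes tested (2.87%). This order was seen first and counted afterwards. EV had the lowest mean of the 10 groups in 510 of the 780 induced targets and the highest in 435 of the 938 repressed targets, which the choice of targets against EV favours. Over the 21484 genes tested, EV was the lowest in 3277 and the highest in 3135. The ZFP4 mean was the highest of all groups in 163 of the 780 induced targets and in 1908 of the 21484 genes tested, and the lowest in 232 of the 938 repressed targets and in 1689 of the genes tested. The same 5 groups also stand together, as the earlier block, in the sequence in which the series lists the libraries of batch 4. EV, NAC4, ASR3, ERF060 and LBD38 form the later block. What this sequence reflects is not stated, and its part in the levels was not tested. Both the order of levels and the blocks set ZFP4 and EV on opposite sides. Because the colour of each vector is not given, the TF and the fluorescent population that was sorted cannot be told apart in this order of levels.

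**Figure D4:**
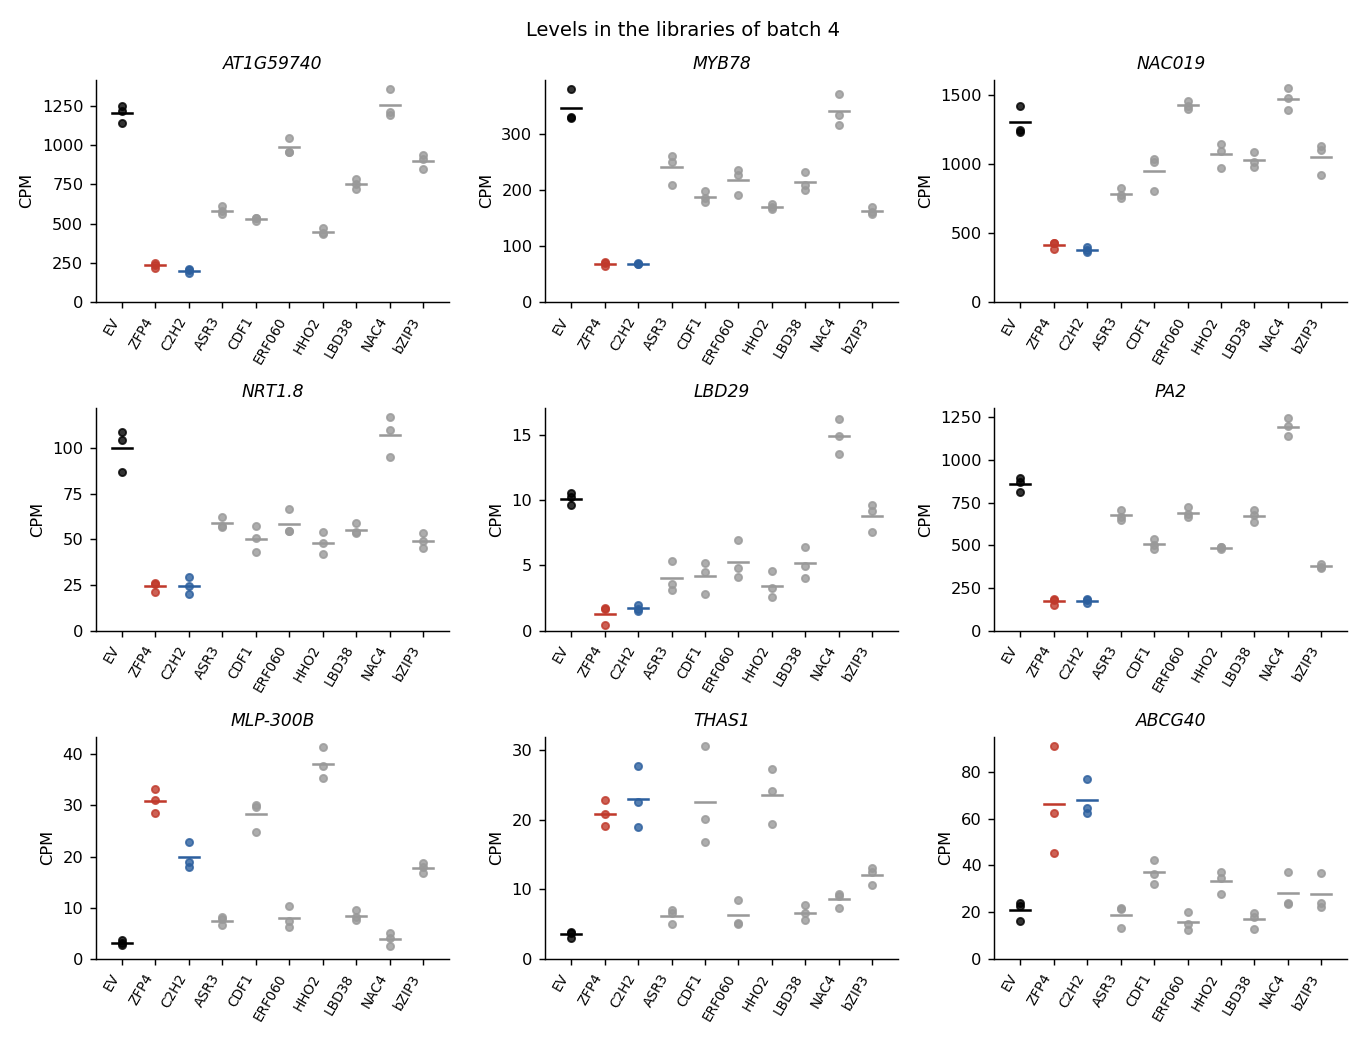
Level of 6 repressed targets (AT1G59740, MYB78, NAC019, NRT1.8, LBD29 and PA2) and 3 induced targets (MLP-300B, THAS1 and ABCG40) in the 30 libraries of batch 4, in CPM. Points are libraries and bars are means of 3 libraries, for EV (black), ZFP4 (red), C2H2 (blue) and the other TFs (grey). The ZFP4 and C2H2 libraries lie together below the other groups for the 6 repressed targets, and MLP-300B and THAS1 are also high with CDF1 and HHO2.

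The libraries of C2H2 (AT5G10970), also a zinc finger protein, were low for many repressed targets. C2H2 is also 1 of the 5 groups on the side of ZFP4, opposite EV, in the order above. The parts of protein type and of this grouping in the values below were not tested. C2H2 had the lowest mean of the 8 other TFs in 549 of the 938 repressed targets and in 104 of the 146 repressed at least 2-fold, against 2822 of all genes tested. A direct comparison of the 2 TFs, added after these values were seen, does not use the EV libraries. At an FDR of 0.05, 135 genes (0.628%) were higher and 112 (0.521%) lower in ZFP4 than in C2H2 (189 and 95 with DESeq2 size factors), and 1950 genes had an unadjusted p under 0.05. The median log2 difference between ZFP4 and C2H2 was 0.03 over the repressed and 0.07 over the induced targets. MYB78 averaged 68.4 CPM with ZFP4 and 68.7 CPM with C2H2, a log2 difference of -0.01 with a 95% interval of -0.20 to 0.18. The interval was -0.31 to 0.26 for PA2, -0.39 to 0.35 for NRT1.8, -0.07 to 0.31 for NAC019, 0.05 to 0.41 for AT1G59740 and -1.19 to 0.43 for LBD29. These intervals leave out a 2-fold difference for MYB78, PA2, NRT1.8, NAC019 and AT1G59740, but not for LBD29, whose counts are low. ABCG40 averaged 66.2 CPM with ZFP4 and 68.0 CPM with C2H2 (interval -0.49 to 0.41).

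Some targets did differ between the 2 zinc finger proteins. Of the 780 induced targets 7 were higher and 20 lower with ZFP4 than with C2H2, and of the 938 repressed targets 28 were higher and 1 lower. These counts include ASR3 and C2H2 themselves. Among all genes tested 0.628% were higher and 0.521% lower. Of the 20 induced targets that were lower, 11 had a ribosomal protein in the product name. MC9 averaged 48.4 CPM with ZFP4, 15.6 CPM with EV and 13.4 CPM with C2H2 (log2 difference from C2H2 1.85, FDR 6.23e-09). The cation exchanger gene CHX20 averaged 4.27 CPM with ZFP4 and 1.14 CPM with C2H2 (1.91, FDR 6.56e-05), and AT1G14240 14.5 and 6.29 CPM (1.21, FDR 0.0303). The call of AT1G14240 was lost whichever library was left out. FIB2, a nucleolar fibrillarin and 1 of the 20 induced targets that were lower with ZFP4, averaged 15.4 CPM with ZFP4, 9.96 CPM with EV and 29.0 CPM with C2H2 (-0.92, FDR 2.22e-04). The repressed targets WRKY11 (0.72, FDR 0.0229), ZFP5 (0.75, FDR 0.0072), PEN3 (0.61, FDR 0.00479) and CIPK25 (0.88, FDR 6.54e-04) were higher with ZFP4 than with C2H2. The count of genes called against C2H2 rested on the libraries used, falling from 247 to 131 without C2H2 replicate 1, 45 without C2H2 replicate 2, 119 without ZFP4 replicate 2 and 59 without ZFP4 replicate 3. Of 12 named genes called against C2H2, 7 to 10 kept their call when a library was left out, and MC9 kept it in all of these fits.

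The CHX-responsive genes, which are not counted as targets, were called more often than the other genes, and mostly lower. Of 1398 tested, 93 (6.65%) were higher and 277 (19.8%) lower with ZFP4 than with EV. MYB108, a close relative of MYB78, was at 225, 220.4 and 221 CPM with ZFP4 and 1092, 1110 and 1191 CPM with EV (log2 fold change -2.35 ± 0.11 (SE), FDR 8.58e-37). The groups did not overlap. MYB2 (-1.80 ± 0.11), WRKY18 (-1.11 ± 0.10) and CYP715A1 (-2.01 ± 0.11) were lower as well (log2, SE), and these 4 were picked after their values were seen. Both groups received CHX, and no cells without CHX were compared here.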

How the data were processed

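Raw counts per gene were deposited for each library, without normalization. The authors had trimmed reads, mapped them on TAIR10 (TopHat2) and summarised overlaps with gene models (GenomicFeatures, GenomicAlignments). The treatment of multiply mapped reads and of strand is not given in the sources used here. Of 33016 identifiers, 32795 were matched to the RefSeq gene table (TAIR10.1), which supplied names, positions and promoters. No 2 libraries were identical.

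The 22883 genes that reached 10 counts in 3 or more libraries were fitted with edgeR 4.0.16 (limma 3.58.1, R 4.3.3; TMM, robust quasi-likelihood, TF and batch as terms) over all 115 libraries, with 39 coefficients and 76 residual degrees of freedom. FDR is the Benjamini-Hochberg adjusted p over all genes tested, with a threshold of 0.05. The 1421 CHX-responsive genes that the study lists were removed after the test, as was ZFP4. CPM are scaled by TMM, and SE was derived from the fold change and the F statistic. Intervals are 95% t intervals from that SE. Promoters were scanned with Python 3.11.15. The fit was tested on simulated data.

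Named genes were the 12 induced and 12 repressed targets with the largest fold change (mean of at least 5 CPM in ZFP4 or EV, no overlap), up to 4 called members of a list by FDR, and 6 genes per direction with the largest difference from the other TFs among genes called in both. The members and lists were chosen with earlier results of these data known. Alternatives included DESeq2 1.42.0, its size factors, no filter, batch 4 or the 6 libraries alone, factor genes left out of the normalization, CHX-responsive genes kept, a replicate block, and each replicate or other TF left out.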

Additional observations from a re-analysis of the deposited data

Results flagged for a closer look

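The ZFP4 transcript averaged 22.2 CPM in the libraries labelled ASR3, whose cells were not given the ZFP4 construct. Its values there were 25.7, 25.2 and 15.6 CPM, all above the 9.99, 11.95 and 10.3 CPM of the EV libraries. This mean was 0.393% of the level in the ZFP4 libraries. The ASR3 transcript in the ZFP4 libraries was likewise 0.263% of its level in the ASR3 libraries, and the C2H2 transcript in the EV libraries 0.346% of its level in the C2H2 libraries.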

How the results depend on the processing

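The 1718 targets numbered 1163 to 1375 (531 to 659 induced, 580 to 816 repressed) when a ZFP4 or an EV library was left out, the lowest total without ZFP4 replicate 3. With batch 4 fitted alone there were 2608 targets, 1298 of them induced, and 1647 of the 1718 were called again. DESeq2 called 889 induced and 1254 repressed targets. Against the other TFs, leaving out a ZFP4 library gave 323 to 494 genes (96 to 192 higher, 227 to 302 lower), batch 4 alone gave 1340 (698 higher), and leaving NAC4 out of the reference gave 214 higher. Against C2H2, leaving out a library gave 45 to 222 genes (at least 29 higher, 12 to 107 lower), and batch 4 alone gave 620 (342 higher, 278 lower).

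Same-numbered ZFP4 and EV libraries deviated together with correlations of 0.24, -0.04 and 0.10 over 14758 genes. Libraries with different numbers had correlations of -0.18 to 0.07. The main fit had no term for the replicate number, and whether the numbers pair the libraries was not tested further. With the replicate block 972 induced and 1190 repressed targets were called, 477 genes higher and 596 lower than the other TFs, and 499 different from C2H2 (284 higher, 215 lower). No named gene changed its direction under any alternative. No scaling moved the median log2 fold change of all genes by more than 0.1. The cause of these changes in count was not tested.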

Other observations

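Several pathway lists hold more called genes when CHX-responsive members are included. Of all 1398 CHX-responsive genes tested, 277 (19.8%) were lower and 93 (6.65%) higher, and the counts below are to be read against these shares. BT1, a scaffold protein gene of the N response, was at 71.3, 69.8 and 78.7 CPM with ZFP4 and 245, 304 and 305 CPM with EV (log2 fold change -1.96 ± 0.13 (SE), FDR 1.80e-24). Of 11 CHX-responsive jasmonate genes 5 were lower, led by the lipoxygenases LOX4 (-1.33 ± 0.10) and LOX3 (-1.27 ± 0.10). The ACC synthases ACS7 (-1.69 ± 0.10) and ACS8 (-1.27 ± 0.12) were 2 of 4 lower members among 5 of ethylene. NCED3, the rate-limiting enzyme of ABA synthesis (-0.93 ± 0.16), and CYP707A3, which breaks ABA down (-1.36 ± 0.13), were both lower, whereas NCED9 was higher at no more than 4.37 CPM. Of 7 CHX-responsive ZAT and AZF zinc finger genes 4 were lower, ZAT11 (-1.75 ± 0.17), ZAT6 (-1.57 ± 0.13), ZAT10 (-0.62 ± 0.09) and ZAT12 (-0.41 ± 0.11, log2 with SE).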
